A study of Mus musculus with 2 samples.

Results

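Ribosome biogenesis and RNA polymerase I transcription are represented here by 48 mouse genes, chosen by symbol for their part in making ribosomes. They were chosen with earlier results of these data known. A probe belonged to a gene when the gene name printed in the scanner files equalled the symbol, and the gene took the value of its brightest probe that was well above background on both arrays. All 48 were found among 37072 gene names on the array, with 99 probes, and all 48 were measured, with 96 of the 99 probes well above background on both arrays. The study compared total RNA of mouse cells given an agent named S180, the case sample, with that of cells given the solvent DMSO, the control sample. What S180 is, its dose, the length of exposure and the cells' type, strain and genotype are not stated in the labels. Each of the 2 samples was hybridised in 1 colour to 1 Agilent mouse expression array, and the arrays shared 1 slide and 1 scan. With a single array per group there is no test between the groups, and every difference below describes these 2 arrays.

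Ribosomes are built in the nucleolus. RNA polymerase I transcribes a long precursor rRNA, small nucleolar ribonucleoproteins (snoRNPs) guide its chemical modification, and large sets of assembly factors fold, cut and export the small and large subunits. Box C/D snoRNPs methylate riboses and box H/ACA snoRNPs turn uridines into pseudouridines. The genes of this machinery are known to be expressed strongly in growing cells and include classical targets of the transcription factor MYC.

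The transcription start regions of the members were looked up in RefSeq (assembly GRCm38.p6), which held windows from 250 bases before to 50 bases after the start for 41 of the 48. Rrs1, Rrp12, Bop1, Gnl2, Npm1, Gnl3l and Fbl were not matched. The sequences printed first are the 100 bases before the start of the 3 members that lay lowest in S180, all on the sense strand and in lower case, since none of the 3 motifs reported below was present in them. They lie at chrX:75095754-75095853 on the plus strand (Dkc1), chr19:45749566-45749665 on the minus strand (Npm3) and chr14:31019132-31019231 on the minus strand (Gnl3).
Dkc1: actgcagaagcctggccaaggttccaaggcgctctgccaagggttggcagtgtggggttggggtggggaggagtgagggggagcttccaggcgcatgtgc
Npm3: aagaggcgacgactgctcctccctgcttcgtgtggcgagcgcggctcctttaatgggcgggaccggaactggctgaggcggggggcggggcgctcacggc
Gnl3: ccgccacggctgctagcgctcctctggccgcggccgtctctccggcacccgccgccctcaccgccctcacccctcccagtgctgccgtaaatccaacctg

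Shown for contrast are the members' 3 matches to the E-box CACGTG (in capitals), the letters that MYC and MAX are known to bind, that lay before the start. They begin 60 bases before the start of Nop2 (window chr6:125131796-125131855, plus strand), and 48 and 215 bases before the start of Rrn3 (windows chr16:13780624-13780683 and chr16:13780457-13780516, plus strand).
Nop2: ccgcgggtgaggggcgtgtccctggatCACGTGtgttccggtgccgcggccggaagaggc
Rrn3, nearer match: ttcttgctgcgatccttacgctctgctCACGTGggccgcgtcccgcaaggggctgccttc
Rrn3, farther match: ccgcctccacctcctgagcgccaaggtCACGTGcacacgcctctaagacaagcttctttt

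The difference between the samples is given as S180 minus DMSO on the log2 scale, after each array's 75th percentile of signal was subtracted. The 48 members had a median difference of -0.11, or 1.08-fold lower in S180, against 0.004 for all 20782 measured genes. Below 0 were 38 of the 48 members, against 49.1% of all measured genes. Below the median of all measured genes were 39 of the 48. The interquartile range of the members ran from -0.19 to -0.02, and that of all genes from -0.14 to 0.16. The members' median thus lay a small amount below that of all genes, with 10 of the 48 members above 0. They spread less than genes at large, with an SD of 0.15 against 0.29 for all genes. By 3 equal groups of signal, the SD of all genes was 0.21 in the brightest and 0.27 in the middle one. 

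**Figure D1:**
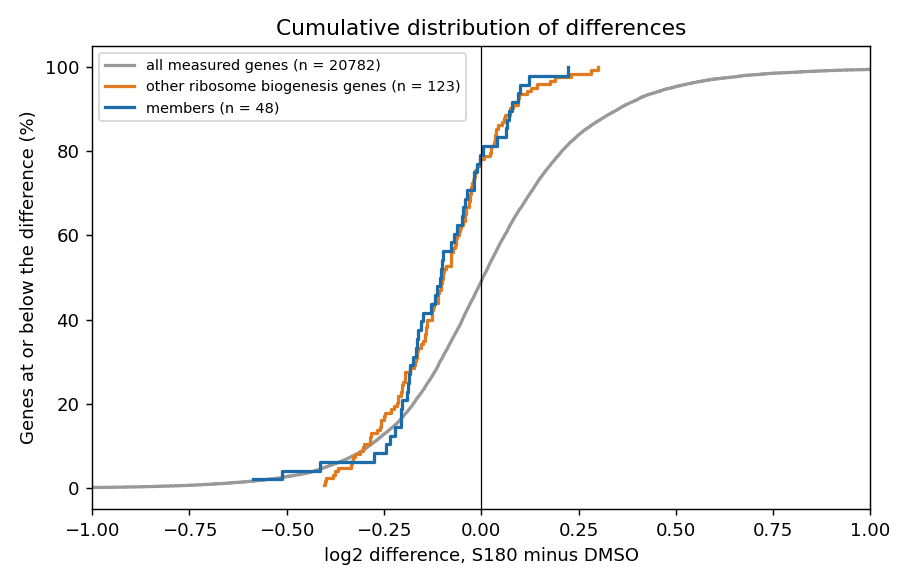
Cumulative distribution of the log2 difference (S180 minus DMSO, horizontal axis) for the 48 members, 123 other ribosome biogenesis genes and all 20782 measured genes, as the percentage of genes at or below each value (vertical axis). Below 0 lay 38 of the 48 members and 96 of the 123 other genes, against 49.1% of all genes; on spike-in scaling all 48 members and 90.2% of all genes lay below 0.

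Few members differed by much. A log2 difference of 0.32 or more, which means at least 25% brighter on either array, was used as the size rule. By it 3 members were lower in S180, against 8.04% of all measured genes, and 0 members were higher, against 11.6%. The share of genes past this rule depends on signal, and no member is among the dimmest genes. Among the brightest of 3 equal groups of genes 1 of 37 members was lower, against 1.88% of that group, and in the middle group 2 of 11, against 8.37%. At 1.5-fold, 1 member was lower, against 1.71% of all genes. At that threshold 0 members were higher, against 3.08%. At 2-fold, 0 members were lower and 0 higher, where 0.168% and 0.582% of all genes were.

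The error available for a single gene is the spread between replicate spots of a probe, which covers the array alone and not the culture, the RNA or the labelling. The measured genes were divided into 3 equal groups (bright, middle and dim) by their mean signal. The SD of a difference between single spots was 0.042 in the bright group, from 262 replicated probes, and 0.072 in the middle group, from only 6. Of the members 37 were bright, 11 were in the middle group and 0 in the dim group. A difference below 0 by more than 2 such SDs was found for 26 members, and above 0 by more than 2 for 4 members (Ubtf, Fbl, Polr1a and Rrn3), which lay below 0 on spike-in scaling. Of all measured genes 20.2% were below 0 and 21.0% above 0 by as much. In the bright group these shares were 26.1% and 32.8%, where 17 and 4 of the 37 members were. In the middle group they were 29.4% and 22.8%, where 9 and 0 of the 11 members were. A pooled SD can be too small for a given probe. For Npm1, the only member printed in 10 spots, the SD between its S180 spots was 0.083 by itself. The number of arrays limits the precision of every value.

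**Figure D2:**
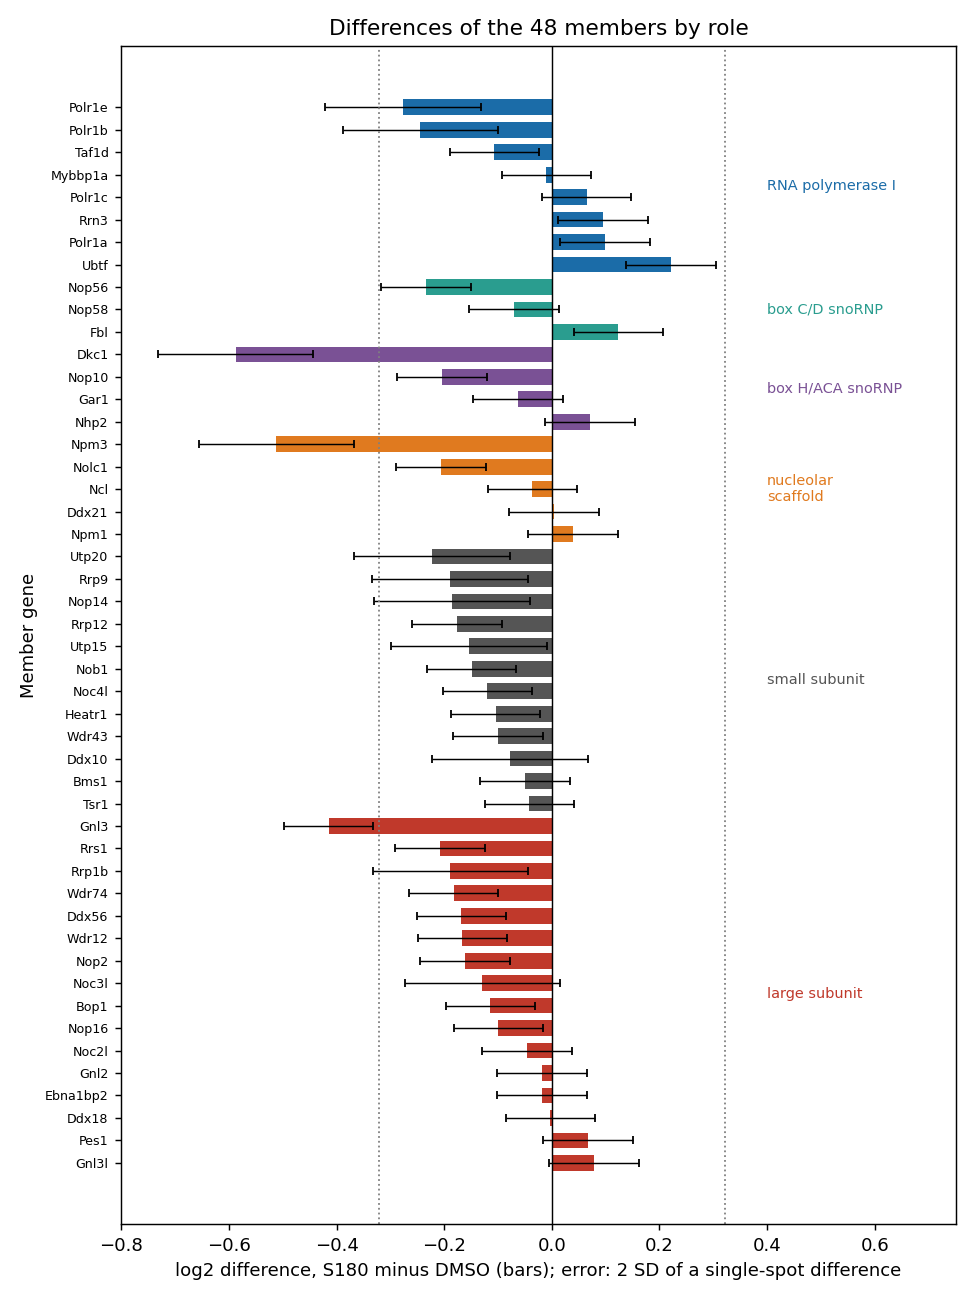
Bars give the log2 difference, S180 minus DMSO, of each of the 48 members, ordered within 6 roles; the error bars are 2 SD of a single-spot difference and the dotted lines mark the size rule of 0.32. Dkc1, Npm3 and Gnl3 pass the lower line, no member passes the upper one, and the bars above 0, led by Ubtf at 0.22, turn below 0 on spike-in scaling or with no scaling.

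The processed signal on the S180 array was lower at large, with a 75th percentile of 615 against 748 on the DMSO array. Signals below are unscaled, in arbitrary units of the scanner, while differences are scaled. On spike-in scaling the median of all genes itself lay at -0.35, and without scaling at -0.28. All 48 members then lay below 0, as did 90.2% of all genes on spike-in scaling and 86.0% without scaling. By the size rule 39 members were then lower on spike-in scaling, against 55.3% of all genes, and 33 without scaling, against 41.6%. The members ran from -0.94 to -0.13 on spike-in scaling. The median of the members minus the median of all genes, which no single factor per array can change, was -0.11.

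The 8 members of RNA polymerase I transcription lay on both sides of the median of all genes. On their brightest probes their median difference was 0.03, and 4 of the 8 lay above the median of all genes. That count was 3 with normexp, 2 with all measured probes averaged and 5 with no filter on dim probes, and the difference from the other roles was not tested. Polr1e, a subunit that takes part in recruiting the polymerase, had the lowest value of the 8. Its signal was 802 in S180 and 1180 in DMSO, a difference of -0.28. Polr1b, the second largest catalytic subunit, had signals of 1562 in S180 and 2248 in DMSO and a difference of -0.24. Both lay more than 2 spot SDs below 0, and all their measured probes were below 0, from -0.28 to -0.13 for Polr1e and from -0.24 to -0.18 for Polr1b.

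Polr1a, which encodes the largest subunit, lay at the other end, with signals of 14061 and 15959 and a difference of 0.10. Polr1c, a subunit shared with RNA polymerase III, had signals of 13326 and 15487 and a difference of 0.06. The dimmer probe of Polr1c gave -0.02. Polr1b thus lay 0.34 below Polr1a as a log2 difference, more than the spot error. For Polr1a, however, the other measured probe gave -0.17, which is 0.08 from the brightest probe of Polr1b. Both Polr1a and Polr1c lay below 0 on spike-in scaling.

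The initiation factors were also mixed. Ubtf encodes UBF, the HMG-box protein that opens active rDNA, and had the highest difference of all 48 members, 0.22, from signals of 61904 in S180 and 64510 in DMSO. That probe maps to chromosome 11, 102166995 to 102167054 (all probe positions are on build mm9). The other 2 probes of Ubtf gave -0.05 and -0.27, so that its direction depended on the probe, and its value was -0.13 on spike-in scaling. Rrn3, which couples the polymerase to the promoter factors and responds to growth signals, had signals of 6752 and 7682 and a difference of 0.09 (-0.26 on spike-in scaling).

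Taf1d, a subunit of the promoter selectivity factor and the host of a cluster of snoRNAs, had signals of 3562 in S180 and 4661 in DMSO on its brightest probe, a difference of -0.11. Its dimmer probes gave -0.66 and -0.39. Mybbp1a, a nucleolar Myb-binding protein that also acts in rRNA transcription, differed by -0.01, from signals of 23496 and 28750.

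**Figure D3:**
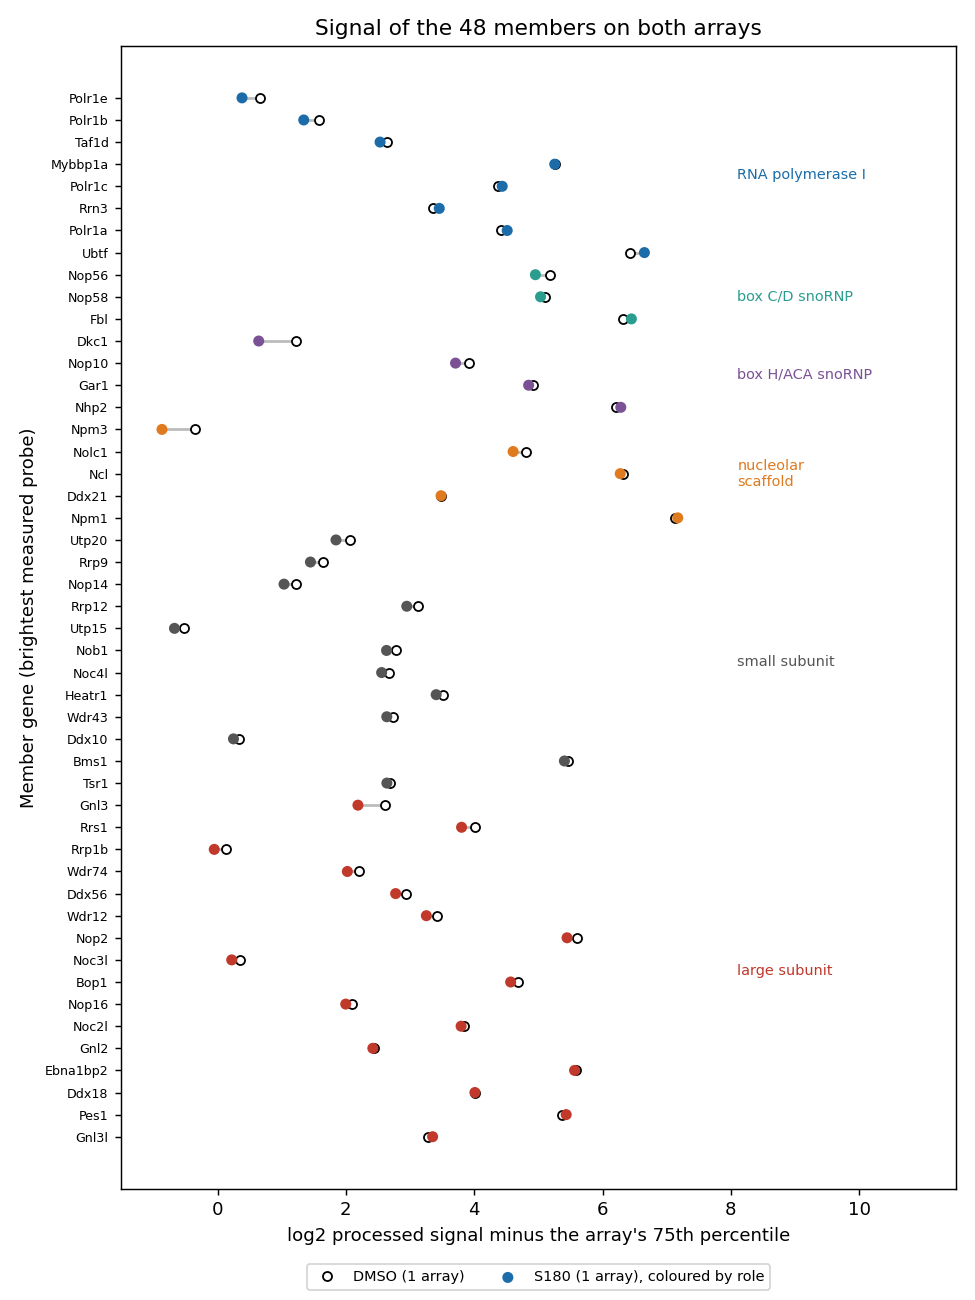
Signal of each of the 48 members on the DMSO array (open circles) and the S180 array (filled circles, coloured by role), as log2 processed signal minus the array's 75th percentile, from 1 array each. Members of the same role span a wide range of signal, from 7.17 for Npm1 to -0.87 for Npm3 on the S180 array, and the gaps between the arrays are small beside it.

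The snoRNP core proteins spanned nearly the whole range of the members. In the box H/ACA particle, Dkc1 encodes dyskerin, the pseudouridine synthase, and had the lowest difference of all 48 members. Its signal was 960 in S180 and 1753 in DMSO, a difference of -0.59, or 1.5-fold lower, and 1.67% of all measured genes lay below it. The probe maps to chromosome X, 72354473 to 72354532. A second measured probe, with signals of 304 and 611, gave -0.72. The remaining proteins of the same particle were less displaced. Nop10, its smallest core protein, had signals of 8049 and 11266 and a difference of -0.20. Gar1, which helps the turnover of substrates, had signals of 17724 and 22500 and a difference of -0.06. Nhp2, an RNA-binding core protein, had signals of 47970 and 55495 and a difference of 0.07, which was -0.28 on spike-in scaling. Dkc1 was therefore apart from its partners by 0.38 or more as a log2 difference.

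In the box C/D particle, Nop56 and Nop58 are paired scaffold proteins and Fbl encodes fibrillarin, the methyltransferase. Nop56 had signals of 19069 in S180 and 27249 in DMSO and a difference of -0.23. Its other probes gave -0.51 and -0.44, so that all 3 were lower in S180. Nop58 had signals of 20159 and 25722 and a difference of -0.07, and its 5 probes ranged from -0.35 to -0.07. Fbl had signals of 53779 and 59988 and a difference of 0.12 on its only probe, or -0.23 on spike-in scaling. The scaffolds thus lay below the methyltransferase on all of their measured probes.

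Among nucleolar scaffold and chaperone proteins, Npm3 stood lowest. Npm3 is a small member of the nucleophosmin family, and its only probe, on chromosome 19 from 45822697 to 45822756, had signals of 338 in S180 and 585 in DMSO. The difference was -0.51, or 1.43-fold lower. Npm1, the abundant family member that organises the nucleolus, had the brightest probe of the 48, printed in 10 spots on each array. The spots ranged from 78299 to 93741 in S180 and from 98536 to 108048 in DMSO, and the difference of their scaled means was 0.04, with SDs between spots of 0.083 and 0.046. Its other measured probes gave 0.06 and 0.23. The members of this family therefore differed on their brightest probes, with Npm3 0.55 below Npm1 as a log2 difference. Npm3 was also far dimmer than Npm1, and the members' differences moved with signal, as described below. The part of signal in this gap was not tested. Nolc1, a chaperone of snoRNPs, lay at -0.21, Ncl (nucleolin) at -0.04 and the helicase gene Ddx21 at 0.004.

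All 12 members that act on the small subunit lay below the median of all measured genes, between -0.22 and -0.04, with a median of -0.13. None of them reached the size rule of 0.32. Utp20, a very large scaffold of the small subunit processome, was the lowest, with signals of 2213 in S180 and 3137 in DMSO and a difference of -0.22. Rrp9, which binds the snoRNA of the processome, lay at -0.19, and Nop14 at -0.19. Rrp12, an export factor, lay at -0.18, with -0.44 from its dimmer probe. The nuclease gene Nob1, which makes the final cut of the small subunit rRNA, lay at -0.15. Utp15, Noc4l, Heatr1, Wdr43, Ddx10 and Bms1, further assembly factors, lay between -0.15 and -0.05. Tsr1, a late assembly factor, was nearest to the median gene at -0.04, and its 3 probes ran from -0.18 to 0.29. With the mean of all measured probes 11 of the 12 lay below the median gene. Of the 40 other small subunit genes, taken from the list of further ribosome biogenesis genes described below, 29 lay below it and 11 above, with a median of -0.10.

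Of the 16 members that act on the large subunit 14 lay below the median of all genes, with a median difference of -0.12. Gnl3, which encodes the nucleolar GTPase nucleostemin, was the lowest. Its probe, on chromosome 14 from 31826877 to 31826936, had signals of 2804 in S180 and 4542 in DMSO, a difference of -0.41, or 1.33-fold lower. Its paralog Gnl3l lay at 0.08, from signals of 6284 and 7231, and at 0.25 on a dimmer probe. The brightest probes of the paralogs were 0.49 apart as a log2 difference. On spike-in scaling Gnl3l lay at -0.28 and Gnl3 at -0.77.

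The other large subunit members lay closer together. Rrs1, which helps bring the smallest rRNA into the large subunit, had signals of 8591 and 12054 and a difference of -0.21. The complex of Pes1, Bop1 and Wdr12, which acts in rRNA processing, was not uniform. Wdr12 lay at -0.17, Bop1 at -0.11 and Pes1 at 0.07 (-0.29 on spike-in scaling). The 5 measured probes of Wdr12 were all below 0, from -0.71 to -0.17, and both probes of Pes1 were above 0, at 0.07 and 0.12. The remaining members of this role were Rrp1b and Wdr74 at -0.19 and -0.18, Ddx56 and Nop2 at -0.17 and -0.16, and Noc3l, Nop16, Noc2l, Gnl2, Ebna1bp2 and Ddx18 between -0.13 and -0.003.

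Several members have more than 1 probe. Besides the brightest probe of each gene, the members had 48 further measured probes in 28 genes, of which 42 (87.5%) lay below 0. Of such further probes of all genes 5944 of 11898 did, and 67.3% of those of the other ribosome biogenesis genes. These probes share the 2 arrays with the brightest ones and are no replicates of the samples. Of the 28 members with 2 or more measured probes, 20 had all of them below 0 and 3 had all above 0. The probes of a member differed by over 0.3 in 4 genes, which were Wdr12, Taf1d, Tsr1 and Ubtf. Shares over all genes were not taken for these counts, which describe the members alone. The dimmest measured probe lay below the brightest in 20 of these 28 members, by a median of -0.10. Over all 7387 genes with 2 or more measured probes this was so in 48%, with a median of 0.01, and in the bright group of genes in 51%. In the other ribosome biogenesis genes it was so in 42 of 80 (52.5%), with a median of -0.01. When all measured probes of a gene were averaged, 6 members were lower by the size rule, against 7.78% of all genes. Nop56 (-0.40), Taf1d (-0.39) and Wdr12 (-0.33) joined the 3 named above, and Ubtf lay at -0.03 and Polr1a at -0.04.

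**Figure D4:**
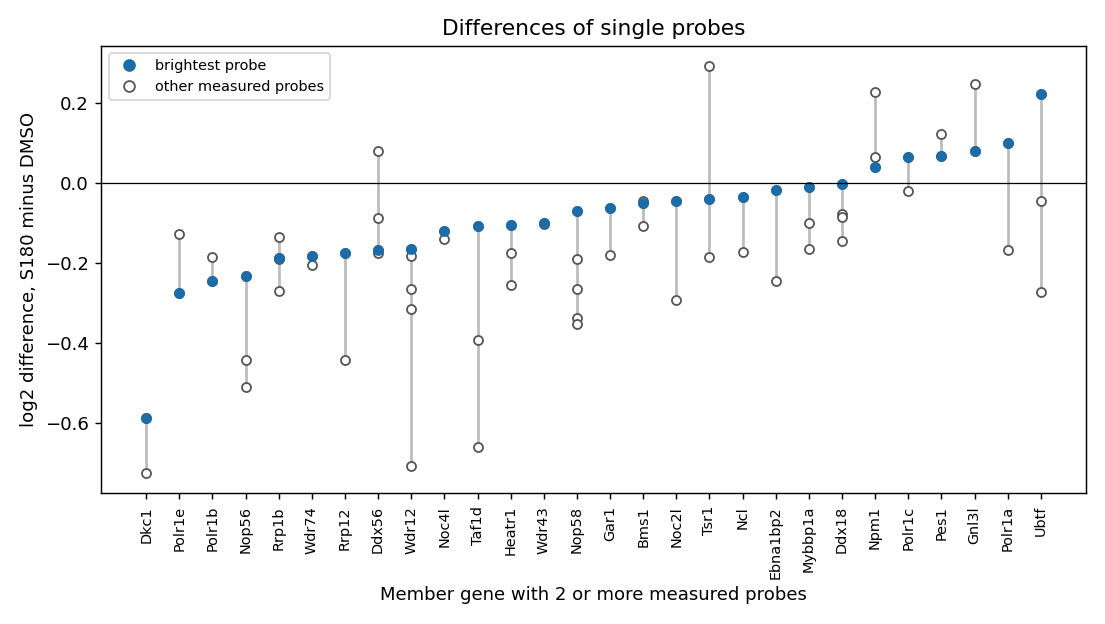
Log2 difference, S180 minus DMSO (vertical axis), of every measured probe of the 28 members with 2 or more, with the brightest probe filled and the others open. In Nop56, Nop58, Wdr12 and Taf1d the dimmer probes lie below the brightest one, and the 3 probes of Ubtf lie on both sides of 0 at 0.22, -0.05 and -0.27.

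The difference moved with the signal. Over the 48 members Spearman's rho between mean signal and difference was 0.59, given as a description, since the members share both arrays and their scaling. It was 0.41 over the other ribosome biogenesis genes and 0.001 over all measured genes. All 11 members of the middle signal group lay below 0, with a median of -0.19, where 56.1% of all genes of that group did. In the bright group 27 of 37 members lay below 0, with a median of -0.06, where 46.7% of genes did. Among the brightest twentieth of all genes, which held 5 members, the median difference was 0.13. Each member was therefore also set against the median of the genes in its own twentieth of signal, a choice made after seeing this trend. Against that reference 40 of the 48 members were lower, with a median of -0.09, and 3 were lower by 0.32 or more. The share of all genes lower by 0.32 or more was not taken here, so that count describes the members alone. The rho between mean signal and difference over the 48 members was 0.31 against that reference. With quantile normalization, under which the difference does not rest on 1 factor per array, the members' median was -0.12 and Ubtf lay at 0.09. Fbl, at 0.12 in the main analysis, lay at 0.02 with quantile normalization. On brightest probes, Npm3, Dkc1, Gnl3, Polr1b, Nop56 and Nop58 were each dimmer than the relative or partner they were compared with above. The differences of Wdr12, Bop1 and Pes1 also followed their signals, which were 8007, 19201 and 30846 in DMSO. The part of the signal trend in those gaps and in the values of the brightest members was not tested.

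**Figure D5:**
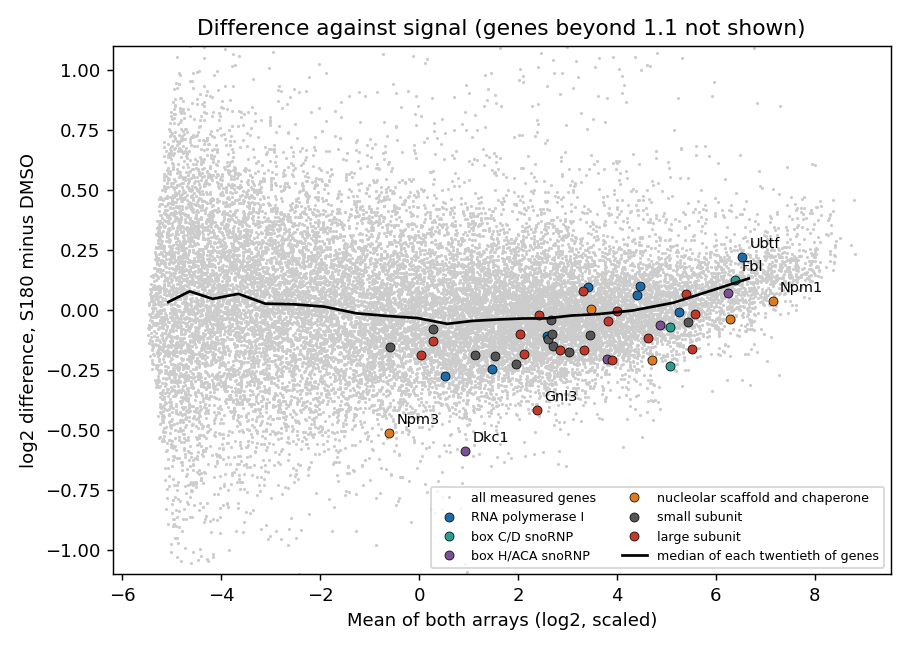
Log2 difference, S180 minus DMSO (vertical axis), against the scaled mean of both arrays (horizontal axis) for all measured genes (grey), the 48 members by role and the median of each twentieth of genes (line). The line rises to 0.13 in the brightest twentieth, and 40 of the 48 members lie below the median of their own twentieth.

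Other genes of the same machinery were taken from a list of 123 that were not members. These 123 were also chosen with earlier results of these data known, and all were measured. Their median difference was -0.10, close to the -0.11 of the members, and 96 of them lay below the median of all genes. By the size rule 10 were lower in S180, against 8.04% of all measured genes, and 0 were higher, against 11.6%. That comparison does not allow for signal, on which these shares depend. Of the 10, Dimt1, Exosc1, Rpp40, Exosc8 and Cebpz were in the bright group, where 1.88% of genes were lower and 6.19% higher. The others, Ddx55, Nol9, Ddx51, Rpp38 and Nmd3, were in the middle group, where these shares were 8.37% and 8.53%. The 123 genes were not counted by signal group. The lowest were the helicase genes Ddx55 at -0.40 and Ddx51 at -0.40, Nol9, which encodes a polynucleotide kinase of large subunit rRNA, at -0.40, and Dimt1, an rRNA dimethyltransferase, at -0.38. The second probes of Ddx55 and Nol9 gave only -0.05 and -0.04. The highest were Mphosph6 and Exosc2 at 0.30 and 0.28, both associated with the RNA exosome, Eif6, which keeps the subunits apart, at 0.23, and Cd3eap at 0.19. Exosc2 had nearly equal signals, 171960 in S180 and 171840 in DMSO, and lay at 0.04 with quantile normalization. On spike-in scaling these highest genes lay between -0.17 and -0.05, and the median of the list was -0.45.

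Of the 13 other genes of RNA polymerase I transcription on that list 11 lay below the median of all genes, with a median of -0.10. They included the selectivity factor genes Taf1a at -0.26, Taf1c at -0.20 and Taf1b at -0.18, which encode partners of Taf1d, and the terminator gene Ttf1 at -0.20. Taf1a, with signals of 61 in S180 and 88 in DMSO, and Ttf1, with 142 and 198, were in the dim group of genes, where the spot SD of a difference was 0.27, so that both lay within 1 spot SD of 0. Cd3eap, a polymerase subunit that works with Polr1e, was the highest of the 13. Polr2e, Polr2f, Polr2h, Polr2k and Polr2l, which carry symbols of RNA polymerase II, were among the 11, between -0.17 and -0.03. The 13 are therefore not confined to genes of RNA polymerase I alone.

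The start regions of the members were searched on both strands for the letters of 3 motifs, and the shares that hold them are given as a description beside those of the other ribosome biogenesis genes and of genes at large. Their 50 windows had a median GC content of 58.8%, against 52.7% in all 32851 windows. It was 56.3% in windows of protein-coding genes and 58.8% in those of the other ribosome biogenesis genes. The ETS letters CCGGAAG were present in 32% of the members' windows, against 42.0% of those of the other ribosome biogenesis genes, 8.86% of all windows and 11.6% of those of protein-coding genes. The E-box CACGTG was present in 14%, against 17.9% for the other ribosome biogenesis genes, 7.15% of all windows and 7.84% of those of protein-coding genes. The TATA letters TATAAA were present in 4%, against 4.46% for the other ribosome biogenesis genes, 13.6% of all windows and 12.6% of those of protein-coding genes. An ETS match lay beside the E-box of Nop2 in the sequence shown above. Overlaps between different motifs were not removed.

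The difference did not run one way with the motifs. The 7 members with an E-box (Utp20, Nop2, Wdr43, Tsr1, Mybbp1a, Pes1 and Rrn3) had a median difference of -0.04, between -0.22 and 0.09, and the 34 without had -0.12. The 15 members with the ETS letters had a median of -0.06, and the 26 without -0.15. In the other ribosome biogenesis genes the order was the opposite, with -0.11 with and -0.10 without an E-box, and -0.13 with and -0.09 without the ETS letters. Over all measured genes with a window the medians were -0.020 and -0.015 for the E-box and -0.04 and -0.01 for the ETS letters. All these medians are given without a test. Dkc1, Npm3 and Gnl3 had neither the E-box nor the ETS letters anywhere in their windows, and Dkc1 had 1 match to the TATA letters outside the stretch shown above.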

How the data were processed

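Total RNA was labelled with Cy3 and hybridised to 1 array per sample, per the labels' protocols. The authors deposited spot intensities on a linear scale from Agilent Feature Extraction 10.7.1.1, background-subtracted and detrended within the array, per the file headers. The authors also deposited a table of log2 values, with no account of its making in the sources used here. Both columns had a median of 5.27 and tracked their own arrays, which settles its scale and direction. Its differences were nearly those of quantile normalization, with a median of -0.12 for the members in both. The table was used as an alternative, but is no check separate from quantile normalization.

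Control spots and outlier spots were left out (120 and 195 non-control spots), log2 processed signals were averaged over the spots of a probe, and each array's 75th percentile of probe values was taken off (Python 3.11.15, pandas 2.3.3). No spot was saturated. Well above background were 61.9% (S180) and 60.6% (DMSO) of the non-control spots. A probe of several spots counted as well above background when most of its kept spots did. Normexp correction (offset 50) used limma 3.58.1. The error came from probes printed in 10 spots with at least 8 kept.

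Members, the list of other genes and the size rule of 0.32 (log2) were chosen with earlier results of these data known. Named with signals were the 8 lowest and 5 highest members, the polymerase and the snoRNP core genes; the 4 lowest and 4 highest of the other genes and the lowest and highest of each role were also named. Genes named in comparison with these, such as Npm1, Taf1a and the complex of Pes1, were chosen after their values were seen, as was the search for motifs. A longer and a shorter form of the NRF1 motif were also counted, the shorter after the values of the longer were seen; they gave differing shares of the members' windows, and neither is reported. The calculation was also run on simulated data with a single measured probe per gene and uniform noise. That run covers the arithmetic and not the choice of probe, the filter or the trend with signal. Alternatives are given in the closing section.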

Additional observations from a re-analysis of the deposited data

How the results depend on the processing

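Scaling on spike-in transcripts and no scaling moved every member downwards, since the median of all genes moved too. The members' median was -0.46 on spike-in scaling and -0.39 without scaling, and that of the other pathway genes -0.45 and -0.38. Lower by the size rule of 0.32 (log2) were then 39 and 33 members, against 55.3% and 41.6% of all genes. Averaging all measured probes gave 6 members instead of 3, against 7.78% of all genes. At 1.5-fold 1 member was lower, and 0 with quantile normalization or in the deposited table, where Dkc1 lay at -0.56; at 2-fold 0 were lower. Quantile normalization, normexp, the deposited table, averaged probes, no filter on dim probes and genes above the median signal kept the members' median between -0.13 and -0.10. The deposited table gave nearly the values of quantile normalization and is not a separate check. The count below the median of all genes ran from 34, without the filter, to 41 of 48, with normexp, and was 35 of 45 members among genes above the median signal. No member was higher by 0.32 or more under any of these alternatives. No paired analysis was possible because each group has 1 sample. Depth on arrays is signal over background: no member was in the dim group of genes, where the spot SD of a difference was 0.27.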
